A study of Mus musculus with 16 samples.

Results

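Transcripts of 10 genes of the interleukin-1 (IL-1) system were followed in isolated mouse islets exposed to IL-1β, to butyrate or to both. The genes were chosen by symbol, through their Ensembl identifiers: the ligands *Il1a*, *Il1b* and *Il18*, the antagonist *Il1rn*, the receptor chains *Il1r1*, *Il1rap* and *Il18r1*, the decoy receptor *Il1r2*, the adaptor *Myd88* and the inhibitory kinase homologue *Irak3*. All 10 were among the 52636 genes of the count table, and all 10 passed the filter on low counts that left 18587 genes for testing. RNA sequencing compared 4 conditions in 16 libraries, 4 per condition: control islets without additions, islets with 50 pg/ml recombinant mouse IL-1β, islets with 0.2 mM sodium butyrate, and islets with both agents at these doses. All islets came from male mice of 12 weeks, were kept in medium with human serum for 10 days, and were pooled from several mice, 500 islets per condition. The strain is C57BL/6JRj in the sample labels and a different substrain in the methods of the study. Whole islets were lysed, so each value is the sum over endocrine cells and the other cells of the islet. A change in the number of cells of a type and a change in RNA per cell cannot be told apart in such samples.

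IL-1α and IL-1β bind the receptor IL-1R1, which then recruits the accessory chain IL-1RAcP, encoded by *Il1rap*. The joined receptors bind the adaptor MyD88, which gathers kinases of the IRAK family and leads through TRAF6 to NF-κB and MAP kinases. Several brakes act on this path: the receptor antagonist IL-1Ra (*Il1rn*) occupies IL-1R1 without a signal, the decoy IL-1R2 binds IL-1 but has no signalling domain, and IRAK-M (*Irak3*) acts at the IRAK step. IL-18 signals through its own receptor chains, IL-18Rα (*Il18r1*) and the accessory chain encoded by *Il18rap*, and the same MyD88. Beta cells are known for a high level of IL-1R1, and resident macrophages are a known source of IL-1β in islets.

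A library held 18635943 to 25955943 counts (median 22184715). The labelled tissue was in keeping with its markers, since the 5 beta cell markers together made 136400 to 260400 CPM (counts scaled by TMM to a library total of 1000000) and the 4 alpha cell markers 18640 to 27810 CPM. The summed beta cell markers lay at 136400 to 177900 CPM with IL-1β and at 212600 to 235400 CPM in control islets. They lay at 136900 to 168900 CPM with both agents and at 220800 to 260400 CPM with butyrate. With IL-1β 4 of the 5 were lowered and 1 was raised (all genes 6.59% and 11.2%). The raised one was *Iapp*, with means of 21970 CPM in control and 27030 CPM with IL-1β. Of the 7 neutrophil markers, *Ly6g* had 0 counts in all 16 libraries and *S100a8* had 0 in 14, but both that passed the filter, *Csf3r* and *Ltf*, were raised by IL-1β (from 3 to 8 counts per library to 11 to 35, and from at most 1 to 16 to 78). Of all genes, 11.2% were raised in this comparison. The 7 together made 0.327 to 0.669 CPM in control islets, 1.499 to 4.37 with IL-1β, 1.299 to 2.46 with both agents and 0.622 to 1.155 with butyrate, and their part in the results was not tested. Of the 6 T cell markers, *Cd3d* had 0 counts in 14 libraries, while *Cd3e* (15 to 57 counts), *Cd3g* and *Trac* were found in each, and the 6 made 2.525 to 3.75 CPM in control and 1.55 to 3.07 CPM with IL-1β.

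The levels of the 10 genes lay over a wide range. Expressed as RPKM, the CPM per kilobase of exon on a linear scale, *Il1r1* had a mean of 100.5 over the 16 libraries, above 98.8% of the genes tested. *Myd88* followed with 6.17 RPKM, *Il18* with 2.98 and *Irak3* with 2.00. The decoy *Il1r2* (1.27 RPKM) and *Il1b* (1.25) came next, and *Il1a* (0.518), *Il1rap* (0.508) and *Il18r1* (0.463) were lower. *Il1rn* had the lowest level, 0.0748 RPKM, with 2 to 16 counts per library. In control islets the ranges of neighbours in this order overlapped from *Irak3* to *Il1rap*, so that *Irak3*, *Il1b*, *Il1r2*, *Il1a* and *Il1rap* could not be ranked one by one, while *Il1r1*, *Myd88* and *Il18* each stood clear of the next gene. With IL-1β, *Il18r1* moved from the ninth to the seventh place, above *Il1a* and *Il1rap*. With butyrate alone *Il1b* moved by its mean from the fifth to the eighth place. There its range overlapped with those of *Il1a* and *Il18r1*, so neither of its places is resolved. The accessory chain was thus measured far below its partner: in control islets the RPKM of *Il1r1* was 234 ± 26.2 times that of *Il1rap* (SD, n = 4). These lengths count every annotated exon, and the 11360 bases of *Il1rap* exceed those of the other 9 genes, so the level of *Il1rap* depends on which of its isoforms were read.

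**Figure D1:**
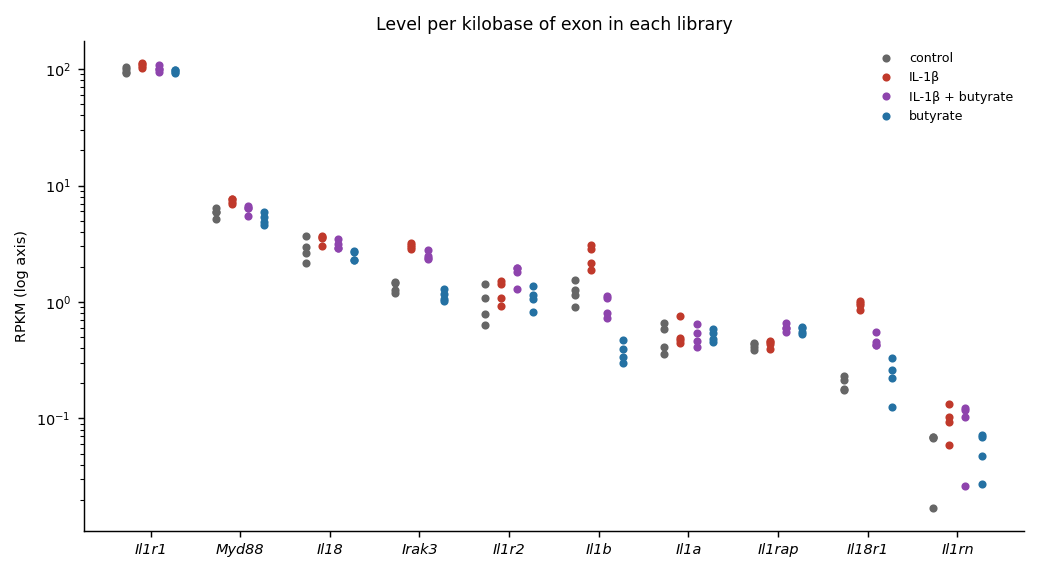
RPKM (log axis) of the 10 genes in each of the 16 libraries, ordered by their mean, with a point per library coloured by condition. *Il1r1* lies near 100 RPKM in every condition. The IL-1β points of *Il1b*, *Il18r1* and *Irak3* lie above those of each other condition, and some of the other conditions overlap.

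IL-1β raised 4 of the 10 genes against control (adjusted p under 0.01): *Il1b*, *Il18r1*, *Myd88* and *Irak3*. None was lowered. Over all genes tested, 17.8% were called in this comparison, 11.2% as raised and 6.59% as lowered. The CPM of the same 4 genes did not overlap between both conditions, as for 24.7% of all genes. The median log2 fold change of the 10 genes was 0.34, beside -0.03 over all genes. When butyrate was added to IL-1β, *Il1b* and *Il18r1* fell and *Il1rap* rose against IL-1β alone, 3 of 10 genes beside 19.5% of all genes (8.41% raised and 11.1% lowered), with a median of -0.13 beside 0.01. The ranges of 5 genes did not overlap, beside 26.9% of all genes: the 2 that fell, *Il1rap*, *Myd88* and *Irak3*. With the replicate number as a block, 6 of the 10 were called, the 3 others being *Il1r2*, *Myd88* and *Irak3*. These 2 comparisons share the 4 IL-1β libraries. Butyrate alone changed 2 of 10 genes against control, beside 19.9% of all genes (8.53% raised and 11.4% lowered): *Il1b* fell and *Il1rap* rose (median -0.03 beside 0.01). Their ranges did not overlap with control, as for 30.1% of all genes. Against control, the combination raised 4 of 10 (*Il1r2*, *Il1rap*, *Il18r1* and *Irak3*), beside 30.6% of all genes called and 15.8% raised, with a median of 0.33 beside -0.00265. In the presence of butyrate, IL-1β raised 3 of 10 (*Il1b*, *Il18r1* and *Irak3*), beside 14.8% of all genes called and 9.92% raised, with a median of 0.49 beside -0.01. Thus 3 of the 4 genes raised by IL-1β alone also passed the test when butyrate was in the medium throughout, and the fourth was *Myd88*.

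Whether the response to IL-1β differed with and without butyrate was tested as an interaction. In edgeR, 0 of the 10 genes passed this test, beside 0.0968% of all genes, and 1 of them (*Il18r1*) had an unadjusted p under 0.05. DESeq2 called 0 of the 10 as well, and *Il18r1* passed in other alternatives given with its values.

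**Figure D2:**
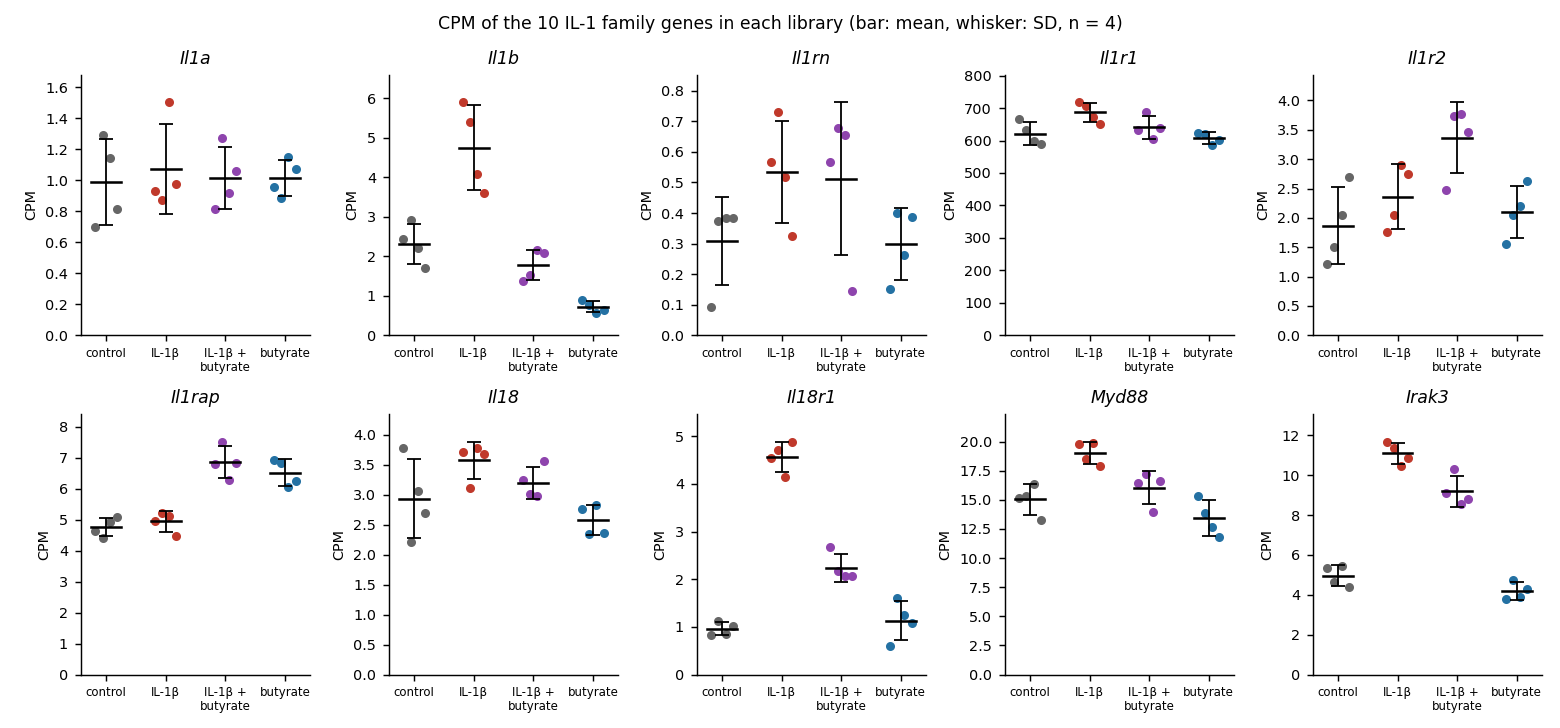
CPM (linear axes from 0, a scale per gene) of the 10 genes in each library, with the mean and SD of the 4 libraries per condition. *Il1b*, *Il18r1*, *Myd88* and *Irak3* are higher with IL-1β in each library than in any control library, and *Il1rap* is higher in both butyrate conditions.

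Among the ligands, *Il1b*, which encodes the cytokine that had been added as protein, rose with IL-1β and fell with butyrate in both settings. Control libraries had 2.43, 2.92, 2.20 and 1.71 CPM of *Il1b* (replicates 1 to 4), and IL-1β libraries 5.89, 5.404, 4.09 and 3.61 CPM. Each IL-1β library was above each control library. With IL-1β and butyrate the values were 1.38, 1.53, 2.15 and 2.07 CPM, and with butyrate alone 0.904, 0.755, 0.575 and 0.645 CPM. The combination overlapped with control, whereas butyrate alone lay below each other library. The log2 fold change was 1.02 (SE 0.18, adjusted p = 7.8e-05) for IL-1β against control, a 2.03-fold higher level. It was -1.41 (SE 0.19, adjusted p = 1.9e-06) for the addition of butyrate to IL-1β and -1.68 (SE 0.24, adjusted p = 4.9e-06) for butyrate alone. IL-1β in the presence of butyrate gave 1.29 (SE 0.25, adjusted p = 0.000258), and the combination against control -0.39 (SE 0.20, adjusted p = 0.139). The counts behind these values were low, 11 to 18 per library with butyrate alone and 79 to 114 with IL-1β.

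Macrophage markers moved in these libraries as well. All 12 markers of the list were called in IL-1β against control, 11 as raised and *C1qa* as lowered (all genes 11.2% and 6.59%), with a median log2 fold change of 2.22. When butyrate was added to IL-1β, 5 of the 12 were lowered and none was raised (all genes 11.1% and 8.41%). Butyrate alone lowered 1 of the 12, *C1qa*, against control (all genes 11.4%). None of the 12 was at 0 in any library. Their summed level was 131.8 to 144.7 CPM in control islets, 192.3 to 244.2 with IL-1β, 103.7 to 145.4 with both agents and 87.0 to 106.9 with butyrate. *C1qa* alone made 99.6 to 124.3 CPM of the control sums, while its partner chains *C1qb* and *C1qc* each stayed under 5 CPM there. Without *C1qa*, left out after its values were seen, the sums were 20.4 to 32.2 CPM in control, 101.3 to 176.5 with IL-1β, 45.4 to 100.4 with both and 15.1 to 25.5 with butyrate. Per 100 CPM of these 11 markers, *Il1b* had 8.99 ± 3.03 CPM in control islets, 3.73 ± 1.64 with IL-1β, 2.48 ± 0.407 with both and 4.04 ± 1.68 with butyrate (SD, n = 4). Per 100 CPM of all 12 markers it had 1.67 ± 0.304 CPM in control, 2.24 ± 0.686 with IL-1β, 1.41 ± 0.0781 with both and 0.743 ± 0.124 with butyrate. The direction between control and IL-1β thus turned on leaving out *C1qa*. Between IL-1β and control the median log2 fold change of 2.22 of the 12 markers stood beside 1.02 for *Il1b*, and this difference was not tested. In the IL-1β group the library with the lowest *Il1b* (replicate 4) had the highest sum of the 11 markers and that with the highest *Il1b* (replicate 1) the lowest, whereas with both agents the pair of libraries with the highest sums (replicates 3 and 4) had the highest *Il1b*. Within groups of 4 libraries, the Pearson r of log2 *Il1b* and the log2 sum of the 11 markers was -0.57 in control and -0.93 with IL-1β. It was 0.97 with both agents and -0.94 with butyrate, values given as a description. The part of the macrophage markers in the values of *Il1b* and of the other genes was not tested.

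**Figure D3:**
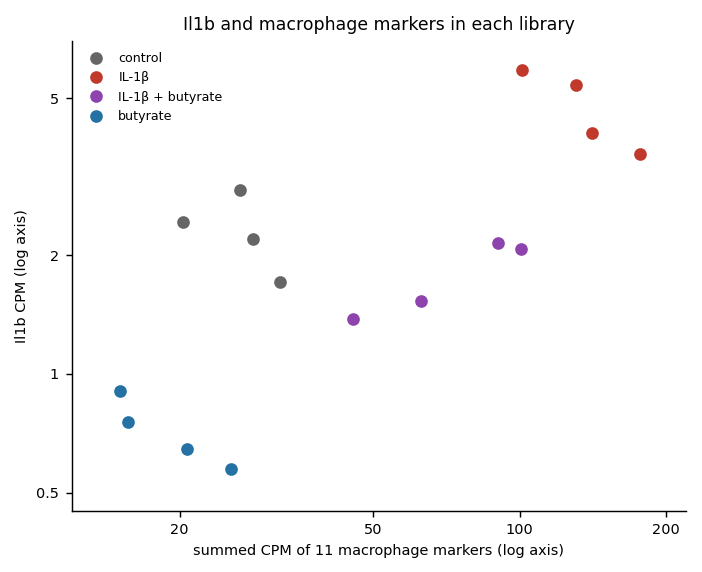
*Il1b* CPM against the summed CPM of 11 macrophage markers (*C1qa* left out), both on log axes, with a point per library. The IL-1β libraries are highest on both axes, and the libraries with both agents have a marker sum above control at an *Il1b* level that overlaps with control.

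The other ligands and the antagonist did not pass the test in any of the comparisons. *Il1a*, the ligand next to *Il1b* on chromosome 2, had 0.988 ± 0.278 CPM in control islets and 1.07 ± 0.291 CPM with IL-1β (SD, n = 4). The difference was 0.10 on the log2 scale (SE 0.25, adjusted p = 0.81, 95% interval up to 0.61). *Il1a* shares 222 of its 1974 exon bases with *Gm14023*, a gene on the opposite strand with 27 to 71 counts per library. *Gm14023* gave 0.56 for IL-1β (adjusted p = 0.036, not called). *Il1b* shares 25 bases with *Il1bos* on the opposite strand (1 to 18 counts). The part of these overlaps in the levels and ratios of *Il1a* and *Il1b* was not tested. In RPKM, *Il1b* was 2.52 ± 0.725 times *Il1a* in control islets, 4.90 ± 1.86 times with IL-1β, 1.86 ± 0.492 times with both and 0.750 ± 0.217 times with butyrate. The ligand that was the more abundant of the pair in control islets was thus the less abundant one with butyrate, in each of the 4 libraries. The ratio with butyrate reached 0.981 in 1 library. It rests on 11 to 18 counts of *Il1b* and 19 to 25 of *Il1a* per library, so the order in a single library can turn on a few counts. *Il1rn* had 0.309 ± 0.144 CPM in control and 0.536 ± 0.167 CPM with IL-1β, a log2 fold change of 0.74 whose SE of 0.43 left it uncalled (adjusted p = 0.23). At 2 to 15 counts per library in these conditions, a change of this size in the antagonist was not detectable. *Il18*, which caspase-1 cleaves to its active form, had 2.94 ± 0.661 CPM in control and 3.58 ± 0.309 CPM with IL-1β (log2 fold change 0.29, SE 0.15, adjusted p = 0.16). With both agents it had 3.20 ± 0.270 CPM and with butyrate 2.58 ± 0.251 CPM, ranges that did not overlap but whose difference was not called (log2 fold change 0.32, SE 0.15, adjusted p = 0.15).

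The signalling receptor *Il1r1* was not called in any comparison without a replicate block. It had 667.1, 631.8, 599.7 and 588.0 CPM in control libraries and 717.3, 705.6, 672.7 and 650.9 CPM with IL-1β. The ranges overlapped, with the 3 highest of these 8 libraries in the IL-1β group. The fold change of 0.14 on the log2 scale (SE 0.05, adjusted p = 0.032, 95% interval up to 0.245) missed the threshold. It was called with the replicate block (0.14, adjusted p = 0.0034), with IL-1β replicate 4 left out and with the library size as the sole scaling. With both agents *Il1r1* had 640.7 ± 34.5 CPM and with butyrate 608.1 ± 17.6 CPM. Against control, butyrate gave -0.03 (SE 0.05, adjusted p = 0.69).

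*Il1rap*, the accessory chain, was higher with butyrate, and no difference was detectable with IL-1β. Control libraries had 4.62, 4.42, 4.92 and 5.09 CPM and IL-1β libraries 4.96, 5.21, 5.13 and 4.48 CPM. These 2 conditions overlapped. Both butyrate conditions were above them in each library, with 6.78, 7.51, 6.26 and 6.84 CPM for IL-1β plus butyrate and 6.93, 6.84, 6.06 and 6.24 CPM for butyrate alone. Butyrate gave a log2 fold change of 0.48 (SE 0.10, adjusted p = 4e-04) on the background of IL-1β and 0.45 (SE 0.10, adjusted p = 0.000746) without it. IL-1β itself gave 0.05 (SE 0.10, adjusted p = 0.80, 95% interval -0.16 to 0.26) without butyrate and 0.07 (SE 0.09, adjusted p = 0.67) with it. The ratio of *Il1r1* to *Il1rap* in RPKM was 234 ± 26.2 in control, 248.4 ± 12.5 with IL-1β, 167.2 ± 3.91 with both and 166.9 ± 6.36 with butyrate. *Il1rap* was the one gene of the 10 that was raised by butyrate in both settings.

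*Il1r2*, the decoy receptor, was called for the combination against control, and for no other comparison in the model without a replicate block. It had 1.21, 1.501, 2.05 and 2.70 CPM in control libraries and 2.48, 3.74, 3.77 and 3.47 CPM with both agents. The lowest library with both agents was within the control range, and the 3 others were above it. This difference was 0.84 on the log2 scale (SE 0.21, adjusted p = 0.0022). The call was lost with any one of 4 libraries left out (control replicate 1 or 2, or replicate 2 or 3 of the combination), with an adjusted p of up to 0.0121. With IL-1β alone *Il1r2* had 2.36 ± 0.549 CPM (log2 fold change against control 0.35, SE 0.22, adjusted p = 0.28) and with butyrate alone 2.11 ± 0.440 CPM (0.18, SE 0.23, adjusted p = 0.62). Butyrate added to IL-1β gave 0.49 (SE 0.21, adjusted p = 0.072), which was called with the replicate block (0.52, adjusted p = 0.0043). The combination against butyrate gave 0.66 (SE 0.21, adjusted p = 0.023), called in 4 of 23 alternatives. In RPKM, *Il1r1* was 111 ± 43.8 times *Il1r2* in control islets and 58.8 ± 12.2 times with both agents, so the decoy stayed far below the signalling receptor in every library (at least 48.2 times).

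*Il18r1*, the ligand-binding chain of the IL-18 receptor, had the largest response to IL-1β of the 10 genes. Control libraries had 0.840, 1.13, 0.860 and 1.03 CPM and IL-1β libraries 4.55, 4.72, 4.15 and 4.87 CPM. No control library came near an IL-1β library. With both agents the values were 2.68, 2.16, 2.06 and 2.07 CPM, between those of control and IL-1β and overlapping with neither. Butyrate alone, with 0.603, 1.60, 1.25 and 1.08 CPM, overlapped with control. IL-1β gave a log2 fold change of 2.24 (SE 0.19, adjusted p = 4.3e-10), a 4.71-fold higher level, and butyrate added to IL-1β gave -1.02 (SE 0.17, adjusted p = 3.0e-05). For butyrate alone it was 0.24 (SE 0.23, adjusted p = 0.50). In the presence of butyrate, IL-1β gave 0.98 (SE 0.20, adjusted p = 0.000563). The difference between both IL-1β effects, the interaction, was -1.26 on the log2 scale (SE 0.29, adjusted p = 0.061), and was not called. It passed in 2 of 22 alternatives, with no filter on low counts (adjusted p = 0.0073) and with the replicate block (adjusted p = 0.0096), and the adjusted p was between 0.0073 and 0.25 over them. The fit without a filter also gave *Irak3* with IL-1β an adjusted p of 1.1e-27, beside 2.3e-10 in the main fit. A pass in that fit is thus less strict. *Il1b* had an interaction of 0.27 (SE 0.31, adjusted p = 0.95).

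Among the intracellular members, *Irak3* rose with IL-1β whether or not butyrate was present. It had 5.37, 4.63, 5.45 and 4.41 CPM in control libraries and 11.7, 11.4, 10.5 and 10.9 CPM with IL-1β, with no overlap. With both agents it had 9.10, 10.3, 8.54 and 8.81 CPM, each of them below each IL-1β library and above each control library. Butyrate alone gave 3.77, 4.75, 3.87 and 4.30 CPM, which overlapped with control. The log2 fold change of *Irak3* was 1.16 (SE 0.10, adjusted p = 2.3e-10) for IL-1β and 1.13 (SE 0.10, adjusted p = 1.1e-09) for IL-1β in the presence of butyrate. The addition of butyrate to IL-1β gave -0.27 (SE 0.09, adjusted p = 0.021), and passed the threshold in 2 of 23 alternatives, with replicate 2 of the combination left out and with the replicate block (-0.27, adjusted p = 0.0074). *Irak3* shares 192 exon bases with *Tmbim4*, a gene on the opposite strand that had 1461 to 3690 counts and itself rose with IL-1β (log2 fold change 0.58, adjusted p = 2.0e-07). *Tmbim4* fell with the addition of butyrate to IL-1β (-0.53, adjusted p = 1.2e-06) and with butyrate alone (-0.41, adjusted p = 4.1e-05). Reads of the overlap cannot be told apart in a library that does not keep the strand.

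*Myd88* was the smallest of the called responses to IL-1β. It had 15.2, 15.3, 16.4 and 13.2 CPM in control libraries and 19.8, 18.5, 19.9 and 17.9 CPM with IL-1β, which did not overlap. The log2 fold change of 0.34 (SE 0.08, adjusted p = 0.0021) was no longer called with control replicate 4 left out (adjusted p = 0.016). With both agents *Myd88* had 16.4, 17.2, 13.97 and 16.6 CPM and with butyrate 15.4, 13.9, 12.7 and 11.8 CPM. Each library with both agents was below each IL-1β library, but the difference of -0.24 (SE 0.08, adjusted p = 0.023) missed the threshold and was called with the replicate block (-0.25, adjusted p = 0.0046). The combination against butyrate gave 0.26 (SE 0.08, adjusted p = 0.024), called in 5 of 23 alternatives. *Acaa1a*, on the other strand, shares 290 exon bases with *Myd88* and gave -0.06 for IL-1β (adjusted p = 0.37). It fell with butyrate added to IL-1β (-0.18, adjusted p = 0.0021) and with butyrate alone (-0.28, adjusted p = 8.9e-06).

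**Figure D4:**
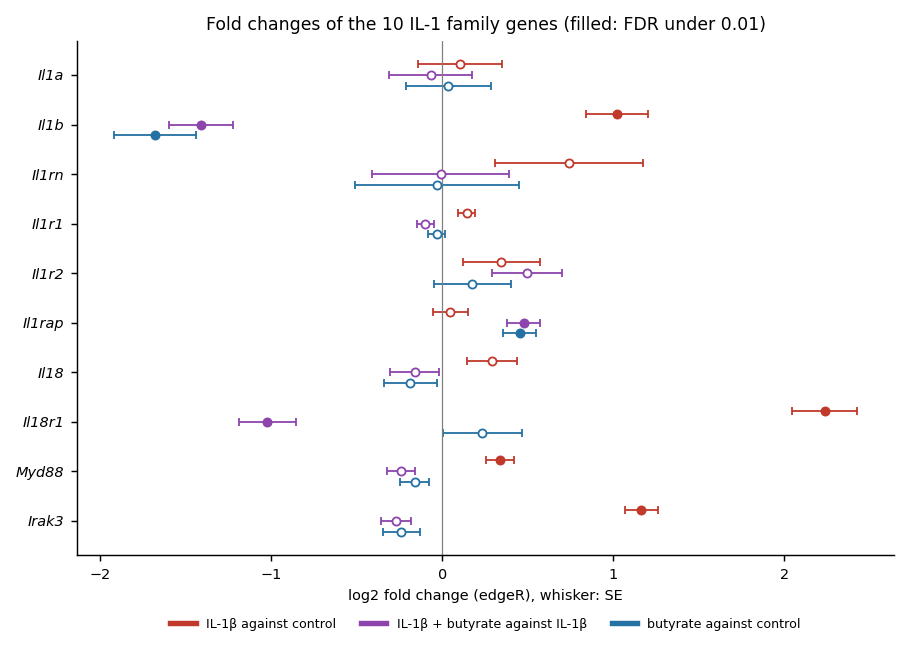
Log2 fold changes (points) with their SE (whiskers) of the 10 genes for IL-1β against control, for butyrate added to IL-1β and for butyrate against control, with filled points for an adjusted p under 0.01. *Il18r1* has the largest rise with IL-1β (2.24), *Il1b* is lowered by butyrate in both settings (-1.41 and -1.68), and *Il1rap* is raised in both (0.48 and 0.45).

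The 10 genes are protein coding, and their positions are given on GRCm38. *Il1r2* (chr1:40074079-40125231), *Il1r1* (chr1:40225080-40317257) and *Il18r1* (chr1:40465552-40500854) lie in this order on the plus strand of chromosome 1. *Il1a* (chr2:129299610-129309972) and *Il1b* (chr2:129364570-129371139) are neighbours on the minus strand of chromosome 2. *Il1rn* lies on the plus strand of the same chromosome (chr2:24336853-24351494). *Il1rap* is on chromosome 16 (chr16:26581704-26730117), *Il18* (chr9:50554827-50581840) and *Myd88* (chr9:119335934-119341411) are on chromosome 9 and *Irak3* is on chromosome 10 (chr10:120141648-120202130). With IL-1β against control, *Il1b* was called and *Il1a* was not, and of the 3 receptors on chromosome 1 *Il18r1* alone was called. Differences between these genes were not tested.

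The RefSeq promoter windows of the 5 genes that IL-1β or butyrate raised against control are shown, with the bases from 250 before to 50 after a start site (GRCm38.p6, read along the strand of the gene). All 10 genes had such windows, 16 in total. Both strands were searched for the κB consensus, the AP-1 site TGANTCA, the GAS element TTCNNNGAA of STAT factors, the interferon response core (2 GAAA blocks with 2 bases between them) and the TATA box TATAAA. Capitals mark the matches. For *Il18r1* the third of its 3 windows is given, since its first and second have no match. Its start site lies 454 bases from the annotated gene start, and it was picked for its matches. The other genes are shown with the window nearest the annotated gene start. The window of *Il1b* (chr2:129371090-129371389, minus strand) has a TATA box at -31 to -26 bases from the start site. That of *Myd88* (chr9:119339969-119340268, minus strand) has a GAS element at -46 to -38 and an interferon response core at -40 to -31, which overlap. It also has a pair of overlapping matches of the TATA box letters on opposite strands, at -164 to -155. The windows of *Il18r1* (chr1:40465756-40466055, plus strand), of *Irak3* (chr10:120202081-120202380, minus strand) and of *Il1rap* (chr16:26581455-26581754, plus strand) hold 2 GAS elements, no match, and an interferon response core after the start, in this order.
Il1b: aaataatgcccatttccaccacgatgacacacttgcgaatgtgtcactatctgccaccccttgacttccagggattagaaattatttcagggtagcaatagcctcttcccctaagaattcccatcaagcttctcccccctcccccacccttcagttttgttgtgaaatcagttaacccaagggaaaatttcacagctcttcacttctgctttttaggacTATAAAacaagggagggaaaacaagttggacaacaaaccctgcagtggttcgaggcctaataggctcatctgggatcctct
Il18r1: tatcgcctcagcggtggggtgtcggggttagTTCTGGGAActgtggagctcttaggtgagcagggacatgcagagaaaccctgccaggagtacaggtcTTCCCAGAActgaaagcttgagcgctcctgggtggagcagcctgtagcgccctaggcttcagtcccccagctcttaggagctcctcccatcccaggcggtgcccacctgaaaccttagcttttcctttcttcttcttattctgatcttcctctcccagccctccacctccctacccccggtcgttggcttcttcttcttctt
Myd88: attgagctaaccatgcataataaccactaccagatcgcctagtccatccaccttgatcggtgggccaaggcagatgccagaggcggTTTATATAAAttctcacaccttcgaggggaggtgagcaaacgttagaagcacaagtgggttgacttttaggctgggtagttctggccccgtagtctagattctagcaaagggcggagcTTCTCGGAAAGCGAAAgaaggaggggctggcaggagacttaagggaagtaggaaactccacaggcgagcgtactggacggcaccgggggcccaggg
Irak3: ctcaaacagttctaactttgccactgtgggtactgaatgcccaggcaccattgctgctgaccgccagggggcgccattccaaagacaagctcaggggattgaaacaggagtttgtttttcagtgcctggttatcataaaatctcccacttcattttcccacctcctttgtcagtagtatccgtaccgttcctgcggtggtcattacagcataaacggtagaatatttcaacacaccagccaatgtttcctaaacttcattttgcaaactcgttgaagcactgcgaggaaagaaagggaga
Il1rap: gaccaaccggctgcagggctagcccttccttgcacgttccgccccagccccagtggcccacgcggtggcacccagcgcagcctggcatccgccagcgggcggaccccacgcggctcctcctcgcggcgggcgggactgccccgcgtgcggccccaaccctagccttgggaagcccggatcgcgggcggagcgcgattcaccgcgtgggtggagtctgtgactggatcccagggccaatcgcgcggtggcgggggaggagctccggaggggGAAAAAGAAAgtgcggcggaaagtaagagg

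In the window nearest the annotated gene start, 0 of the 10 genes had a κB consensus, 2 an AP-1 site (*Il1a* and *Il1rn*), 2 a GAS element, 2 an interferon response core and 4 a match of the TATA box letters. These matches lay at -32 to -27 in *Il1a* and -31 to -26 in *Il1b*. In *Il18* the match lay further off, at -175 to -170 on the other strand, and in *Myd88* at -164 to -155. The GAS elements were in windows of *Il1r2* and *Myd88*, whose start sites lay 12014 and 1393 bases from the annotated gene start. Of all 32851 promoter windows of the same length, 4.51% held the κB consensus, 7.81% the AP-1 site, 8.3% the GAS element, 3.44% the interferon response core and 13.6% the TATA box. The second window of *Il1r1* held a κB match at -232 to -223 bases from its start site. These are matches of letters in short windows and not measured binding.

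Around these 10 genes, 41 further genes of the pathway were listed, of which 34 passed the filter. The 7 others had at most 21 counts in a library, among them *Nlrp3*, the sensor of the inflammasome, and *Il1rl1*, the IL-33 receptor. IL-1β raised 10 of the 34 and lowered 2 (all genes 11.2% and 6.59%), with a median log2 fold change of 0.11. Butyrate added to IL-1β raised 1 and lowered 7 (all genes 8.41% and 11.1%), with a median of 0.01. Butyrate alone raised 1 and lowered 4 (all genes 8.53% and 11.4%).

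*Il36a* and *Il18rap* were near 0 in control islets and rose with IL-1β. *Il36a*, a ligand of the IL-36 receptor, had 0, 0, 0 and 2 counts in control libraries and 60, 84, 68 and 104 with IL-1β. The mean CPM of *Il36a* with IL-1β was at least 27 times that of control, with control set to the floor of 3 counts per library. With both agents it had 106, 153, 98 and 130 counts, and the difference from IL-1β alone (0.55, SE 0.17, adjusted p = 0.016) was called with the replicate block (0.56, adjusted p = 0.0011). *Il18rap*, the partner chain of *Il18r1*, had 1, 0, 3 and 2 counts in control and 35, 29, 22 and 30 with IL-1β. Its mean CPM with IL-1β was at least 10.1 times that of control set to the same floor. The chains of the IL-18 receptor thus both rose with IL-1β. Butyrate added to IL-1β lowered *Il18r1* but gave -0.28 (SE 0.26, adjusted p = 0.46) for *Il18rap*, and whether the chains differ in this was not tested. The soluble inhibitor *Il18bp*, which binds IL-18, rose from 8.66 ± 0.845 to 19.9 ± 1.42 CPM (log2 fold change 1.20, SE 0.08, adjusted p = 6.2e-12) and fell to 10.7 ± 1.09 CPM when butyrate was added (-0.90, SE 0.08, adjusted p = 3.0e-09). With butyrate alone *Il18bp* had 6.58 ± 0.292 CPM, so it was lower with butyrate in the absence of IL-1β as well.

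Of the 7 tested genes for the processing and release of IL-1β and IL-18, IL-1β raised 3 (*Casp1*, *Casp4* and *Gsdmd*), beside 11.2% of all genes. *Casp8*, *Pycard*, *Nlrc4* and *Aim2* were not called. *Casp1*, the protease that matures both cytokines, had 0.513, 0.0834, 0.143 and 0.428 CPM in control and 2.74, 2.92, 2.59 and 2.995 CPM with IL-1β, and with both agents 0.934, 0.891, 0.657 and 0.915 CPM. The conditions did not overlap. For *Casp1* the log2 fold change was 3.26 (SE 0.31, adjusted p = 3.3e-09) for IL-1β and -1.72 (SE 0.25, adjusted p = 8.2e-06) for the addition of butyrate. *Casp4*, the inflammatory caspase that senses lipopolysaccharide inside cells, gave 3.21 (SE 0.22) and -0.91 (SE 0.17). *Gsdmd*, which forms the membrane pore for release, gave 1.16 (SE 0.12) and -0.40 (SE 0.11, adjusted p = 0.0070). The latter was lost in 7 of 23 alternatives, of which 5 left out 1 library (IL-1β replicate 1 or 4, or replicate 1, 2 or 3 of the combination, adjusted p of up to 0.019). *Pycard*, the inflammasome adaptor ASC, was the 1 gene of the list that butyrate raised in both settings, by 0.89 (SE 0.13, adjusted p = 5.7e-06) on the background of IL-1β and by 0.78 (SE 0.13, adjusted p = 5.0e-05) without it. The macrophage marker sums given beside *Il1b* apply to these values as well, and their part was not tested.

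Between receptor and NF-κB the changes were small and of mixed sign. *Irak2* (log2 fold change 0.58, SE 0.10) and *Irak4* (0.58, SE 0.11), kinases of the complex with MyD88, rose with IL-1β, as did the ubiquitin ligase *Peli3* (0.45, SE 0.08). *Irak1* had 304.1 ± 8.96 CPM in control and 248.9 ± 18.1 CPM with IL-1β (-0.29, SE 0.05, adjusted p = 3.2e-05), and fell further to 179.5 ± 6.47 CPM with both agents (-0.47, SE 0.05, adjusted p = 3.0e-08). With butyrate alone *Irak1* had 207.9 ± 6.165 CPM, also below control. The ubiquitin ligase *Traf6* was lowered in islets with IL-1β against control (-0.25, SE 0.05). Butyrate added to IL-1β lowered the inhibitory receptor *Sigirr* (-0.47, SE 0.08) and the inhibitory adaptor *Tollip* (-0.34, SE 0.07). Their means were also lower with butyrate alone than in control. *Sigirr* had 8.36 ± 0.756 CPM with butyrate and 11.5 ± 0.544 CPM in control, and *Tollip* 144.3 ± 11.8 and 174.1 ± 13.2 CPM. Of the genes named as inhibitors of the path, *Irak3* and *Il18bp* thus rose with IL-1β, *Il1rn* and *Il1r2* were not called in that comparison, and *Sigirr* gave 0.23 (SE 0.08, adjusted p = 0.038) and *Tollip* -0.19 (SE 0.07, adjusted p = 0.060), the latter called with the replicate block (adjusted p = 0.000154). *Zc3h12a*, the RNase Regnase-1, which degrades cytokine transcripts, rose from 0.998 ± 0.172 to 29.6 ± 2.11 CPM (4.89, SE 0.12, adjusted p = 9.4e-22) and had 33.2 ± 2.25 CPM with both agents.

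**Figure D5:**
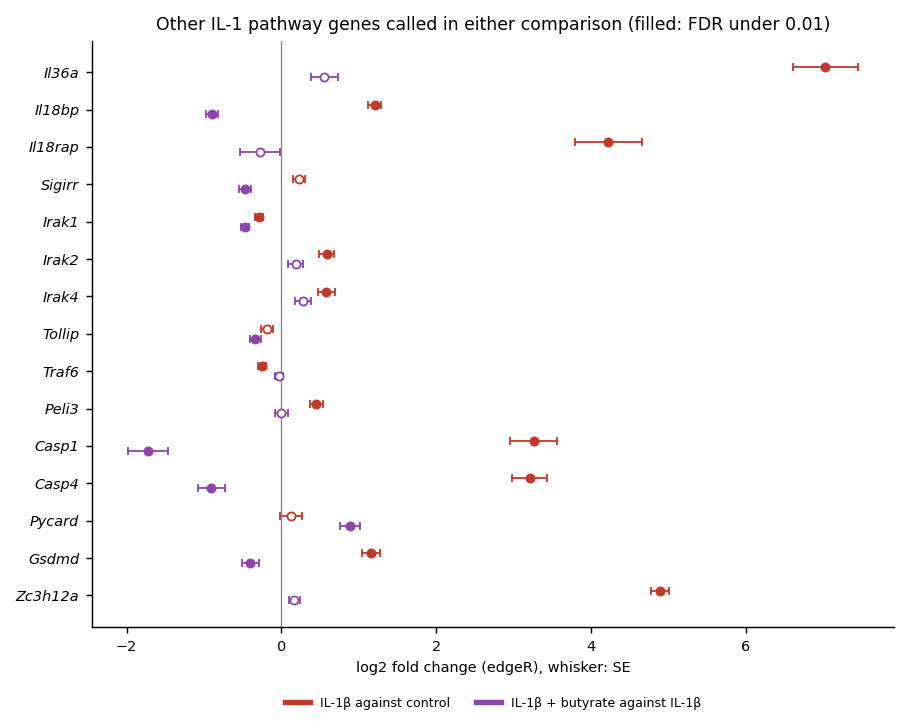
Log2 fold changes with their SE of the 15 genes of the pathway list that were called with IL-1β against control or with butyrate added to IL-1β, with filled points for an adjusted p under 0.01. Fitted values of *Il36a* and *Il18rap* stand against control libraries near 0 counts and are no bounds, and *Casp1*, *Casp4* and *Il18bp* rise with IL-1β and fall with the addition of butyrate.

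The genes whose log2 CPM over the 16 libraries was most like that of a gene raised by IL-1β were taken from 12685 genes with enough signal. For *Il1b* these were *Gpa33* (Pearson r = 0.982), a cell surface antigen, *Tonsl* (0.978), which acts at stalled replication forks, and *Klc3* (0.975), a kinesin light chain. *Gpa33* had mean levels of 11.4 CPM in control, 22.0 with IL-1β, 10.3 with both and 5.02 with butyrate. For *Il18r1* they were *Crispld2* (0.956), *Akr1b8* (0.943) and the calcium channel subunit *Orai2* (0.938), with *Crispld2* at 1.06, 25.6, 11.3 and 1.30 CPM in the same order of conditions. For *Irak3* they were *Samd9l* (0.986), the chemokine *Ccl28* (0.984) and the kinase *Pim2* (0.981), and *Ccl28* had 19.4, 221, 159.8 and 10.0 CPM. For *Myd88* they were *Zhx2* (0.928), *Sgk2* (0.917) and *Sh3bgrl* (0.916). The libraries share their condition and the correlations are given as a description.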

How the data were processed

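Islet RNA from 16 libraries was sequenced as single-end reads with a non-directional kit, so strands cannot be told apart. Per the submitters' processing notes and the methods of the study, the authors mapped the reads to GRCm38 (mm10) with STAR 2.5.3a, and the deposited values are read counts per Ensembl gene, whole numbers without normalization. The annotation release and the strand setting of the counting are not given in the sources used here. Names, positions and exon lengths were taken from GENCODE M21, which held 52489 of the 52636 identifiers. *Il36a* was matched through its RefSeq synonym. Of the genes, 10560 had no count in any library.

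In R 4.3.3, edgeR 4.0.16 filtered genes by count (filterByExpr), scaled by TMM and fitted a robust quasi-likelihood model of the 4 conditions to all 16 libraries. P-values were adjusted by Benjamini-Hochberg over the 18587 genes tested, in each of 6 comparisons, with calls at an adjusted p under 0.01. CPM were computed on the TMM-scaled library totals and RPKM by dividing CPM by the union of annotated exons. A condition with at most 3 counts in each library was taken as at the floor. Named were the 10 genes, the genes of the pathway list called in either of the first 2 comparisons, and, for each of the 10 that IL-1β raised, the 3 genes with the most similar log2 CPM (average log2 CPM of at least 1). Genes that overlap a member on the other strand and marker genes are named beside results they touch. *Il1rl1* and *Nlrp3* were named after their values were seen. The members and lists were chosen with earlier results of these data known.

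The study describes independent experiments with islets pooled from several mice, and no source used here says that a replicate number marks an experiment. The model without a block takes the libraries as independent, and its p-values measure the spread between libraries. Same-numbered libraries deviated together: for 4 of the 6 pairs of conditions each correlation of their deviations was over 0.1 (control with each other condition, minimum 0.113, and IL-1β with the combination, minimum 0.251). The numbers were taken from the data to pair these conditions, and a blocked value is given beside a result where it changes the call. IL-1β plus butyrate with butyrate (minimum 0.0776) and IL-1β with butyrate (0.0448) did not meet this. Replicates differed by more than counting error. Alternatives were other scalings, no filter, DESeq2 1.42.0, a replicate block, another threshold and leaving out each library. The scripts were tested on simulated data.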

Additional observations from a re-analysis of the deposited data

Results flagged for a closer look

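In 4 of the 40 groups of 4 libraries (10 genes in 4 conditions), 1 library lay apart from the 3 others by Dixon's criterion, where chance flags about 1 in 20 groups. *Il1a* had 1.5 CPM in IL-1β replicate 3, against 0.876 to 0.974 CPM in the other IL-1β libraries. *Il1rn* had 0.0933 CPM in control replicate 1, a value of 2 counts, against 0.375 to 0.385 CPM in the other control libraries. *Il18* had 3.12 CPM in IL-1β replicate 2, against 3.68 to 3.78 CPM. *Il18r1* had 2.68 CPM in replicate 1 of IL-1β plus butyrate, against 2.06 to 2.16 CPM. These are 4 different libraries.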

How the results depend on the processing

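Directions and calls of the 10 genes mostly held under other scalings, filters, tools and with each library left out. With upper-quartile scaling *Il1rn* reversed to 0.0351 for butyrate added to IL-1β and to 0.0205 for butyrate against control, and *Il1r1* to 0.0197 for butyrate against control. With library size as the sole scaling *Acaa1a* reversed to 0.00718 for IL-1β (log2 scale, none called). With 1 library left out, uncalled fold changes reversed for *Il1a* (ranges -0.0789 to 0.265 for IL-1β, -0.214 to 0.109 for butyrate added to IL-1β and -0.0956 to 0.196 for butyrate), *Il1rn* (-0.238 to 0.257 for butyrate added to IL-1β and -0.315 to 0.177 for butyrate) and *Il1r1* (-0.0596 to 0.00239 for butyrate). For IL-1β plus butyrate against butyrate, 5 of the 10 genes were called with library size as the sole scaling, with no filter, and at an adjusted p under 0.05. No filter gave 1 call for the interaction, and an adjusted p under 0.05 gave 5 calls for butyrate added to IL-1β and 9 in the pathway list for butyrate alone. The cause was not tested.

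The pairing held for 4 comparisons and not for IL-1β plus butyrate against butyrate or the interaction: the deviations of same-numbered libraries correlated over 0.1 in 22 of 24 pairs (median 0.278), and each of the 16 libraries was closest to its own number over 12544 genes, a hint from the data. With a replicate block, 6 of the 10 genes were called for butyrate added to IL-1β. The block also gave 5 for IL-1β plus butyrate against butyrate, with *Il1r2* (adjusted p = 0.000448) and *Myd88* (0.0062) added, and 1 for the interaction, *Il18r1*. Among the 10 genes the sole other call it changed was *Il1r1* with IL-1β. Over all genes the block gave 132 calls for the interaction, DESeq2 52 and the model without it 18. In the other comparisons it gave 4537 for IL-1β (3311 without), 4983 for butyrate added to IL-1β (3629), 4879 for butyrate (3697), 6899 for both agents against control (5688) and 3750 against butyrate (2747). Scaling moved the split of raised to lowered genes over all genes, for IL-1β from 2087 and 1224 to 1914 and 1800 (upper quartile) or 2798 and 708 (library size), and for butyrate added to IL-1β from 1563 and 2066 to 2137 and 1566 (upper quartile). Depth limits *Il1rn*, *Il1a* and genes near 0 counts.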
